A study of Mus musculus with 8 samples.

Results

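Caveolae are small flask-shaped pits of the plasma membrane, and the 10 genes described here encode the proteins that build, bend and anchor them. They are the caveolins *Cav1*, *Cav2* and *Cav3*, the cavins *Cavin1*, *Cavin2*, *Cavin3* and *Cavin4*, the neck ATPase *Ehd2* and the membrane-curving proteins *Pacsin2* and *Pacsin3*. The genes were listed by name as caveolar components, and all 10 were found by Ensembl identifier among the 54532 genes counted. Caveolins are inserted into the cytoplasmic leaflet and oligomerise in cholesterol-rich membrane, and cavins then assemble on them as a peripheral coat. EHD2 encircles the neck and holds the pit at the cell surface, and pacsins bind curved membrane through their F-BAR domain. In cells of the vessel wall caveolae are known as a membrane reserve under stretch and as a place where receptors, ion channels and nitric oxide synthase gather.

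The RNA came from brain pericytes of wild-type mice kept in primary culture. Pericytes are the mural cells that sit on capillaries. Bulk RNA sequencing compared 4 cultures given TGF-β1 at 5 μg mL-1 for 48 h, the dose as labelled, with 4 given vehicle. Both groups shared the genotype, and the comparison asked how the transcriptome of these cells responded to TGF-β1. Cultures are named by their labelled numbers, 1 to 4 for vehicle and 5 to 8 for TGF-β1. These numbers give no pairing. The study's methods name 4 isolates given vehicle and TGF-β1, but the labels do not tie cultures to isolates, and the tests treated the 8 cultures as independent. Each p-value sets the difference between the groups against the spread of cultures within them.

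Each culture held between 45255235 and 47651397 counts, and levels are given as CPM, the count divided by the library's total after TMM scaling and expressed per 1000000 counts. Of the pericyte markers, *Pdgfrb* averaged 202.1 CPM with vehicle and 291.4 CPM with TGF-β1 and *Cspg4* averaged 82.9 and 169.2 CPM, both called higher. *Rgs5* was called lower, from 8.62 to 2.13 CPM (log2 fold change -2.02), as was *Anpep*, from 40.5 to 30.1 CPM, and *Notch3* was not called at 88.5 and 85.9 CPM. *Mcam* was called higher, from 5.25 to 10.1 CPM, and *Des*, at the low levels of 0.685 and 0.623 CPM, was not called. *Kcnj8*, *Abcc9* and *Vtn*, which mark brain pericytes in tissue, were near 0, at 0.0108, 0.112 and 0.0864 CPM with vehicle. Of 12 endothelial markers, *Cdh5* averaged 374.9 CPM with vehicle, *Flt1* 81.7 CPM, and *Kdr* and *Ly6c1* 17.9 CPM each. The rest averaged at most 2.71 CPM with vehicle, with *Pecam1* at 1.11 CPM and *Cldn5* at 0.0754 CPM. In bulk RNA, fewer cells of a type and less RNA per cell cannot be told apart. Of 14 genes listed for their known response to TGF-β, 13 were called higher with TGF-β1, beside 20.9% of all genes tested. The other, *Tgfbi*, was called lower, with a log2 fold change of -1.50. The median of the list was 0.98, and the list was chosen with earlier results of these data known.

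Caveolae genes moved in both directions with TGF-β1. Both expressed caveolins rose, *Cavin1*, the most abundant cavin, and *Cavin3* fell, *Cavin2* and the scarce *Cavin4* rose, *Ehd2* fell slightly and *Pacsin2* rose slightly. Of the 10 genes, 9 had enough counts to be tested and 8 of these were called by edgeR's quasi-likelihood test at an adjusted p under 0.05. The background was high, since 41.3% of the 22544 genes tested were called. Of the members, 5 were called higher, beside 20.9% of all genes tested, and 3 were called lower, beside 20.3%. The same 8 genes had groups of cultures that did not overlap, which held for 37.9% of all genes tested. The median log2 fold change of the 9 tested members was 0.13, beside -0.01 for all genes tested.

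**Figure D1:**
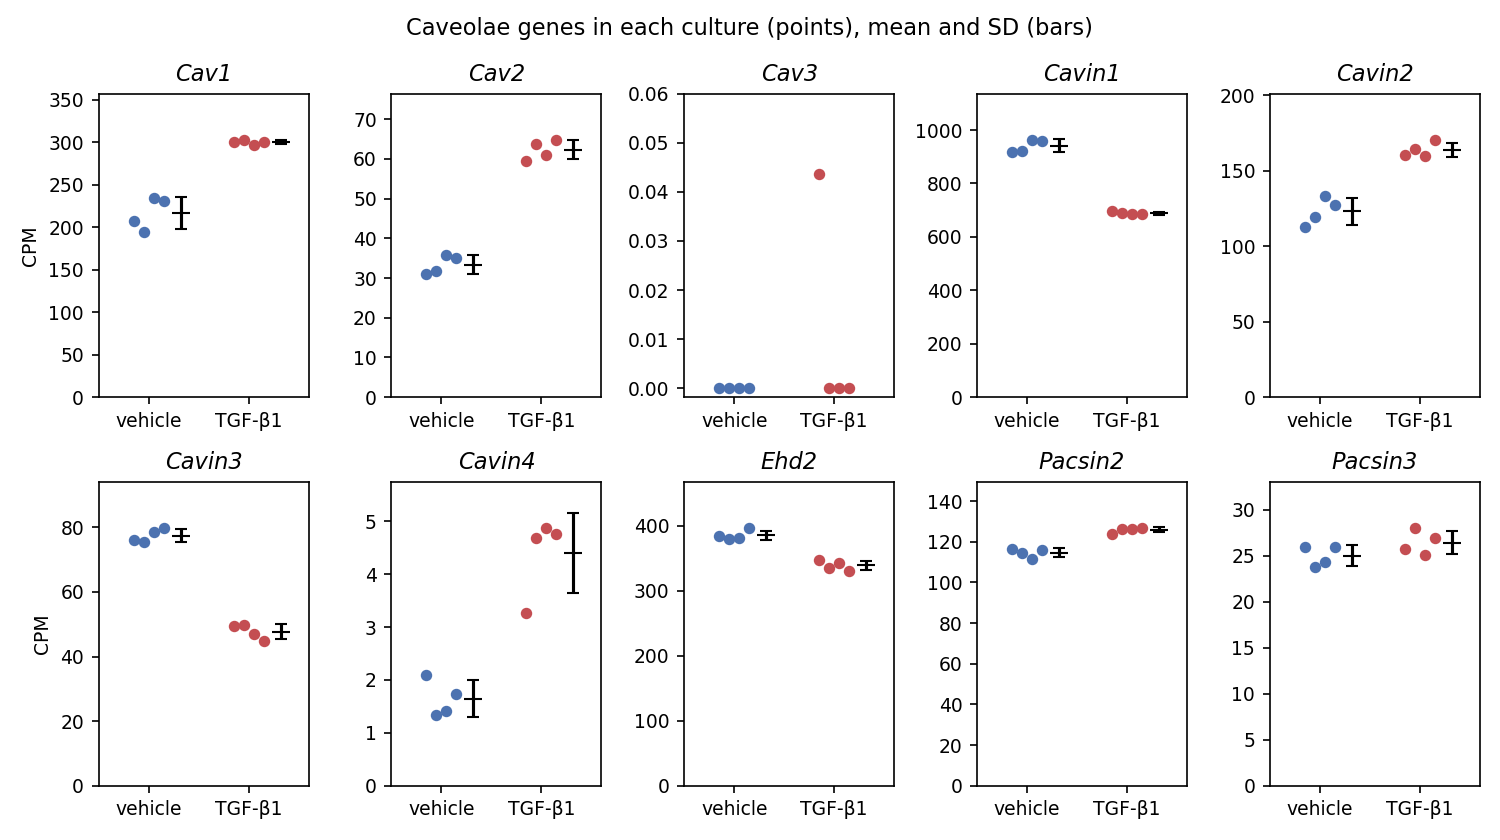
CPM (y axis, linear, a separate scale for each gene) of the 10 caveolae genes in the 4 vehicle cultures (blue) and the 4 TGF-β1 cultures (red), with the mean and SD of each group as bars beside the points, except for *Cav3*. The groups are apart in 8 genes, overlap in *Pacsin3*, and *Cav3* is at 0 in all cultures but 1.

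The size of the change differed widely between members. The median absolute log2 fold change was 0.18 over all genes tested and 0.32 over the genes called. *Cavin4* exceeded 97.7% of the genes tested in absolute log2 fold change, *Cav2* 93.1% and *Cavin3* 88.9%. *Cav1*, *Cavin1* and *Cavin2* exceeded 79.7%, 78.7% and 76.1% of them. The changes of *Ehd2* and *Pacsin2* were ordinary in size, larger than those of 49.9% and 39.5% of the genes tested.

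**Figure D2:**
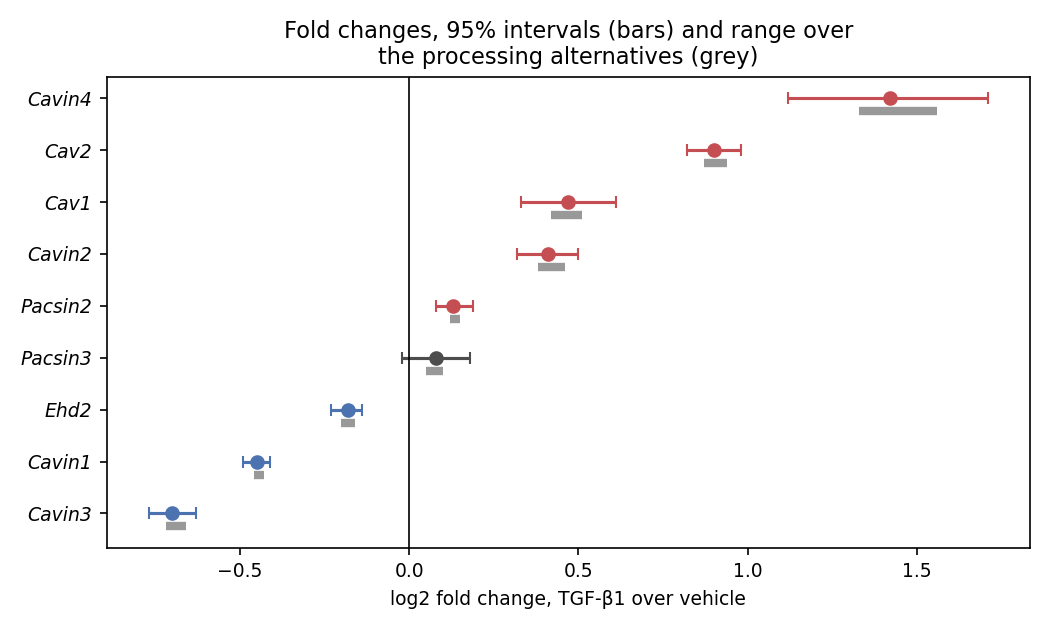
Log2 fold change (x axis), TGF-β1 over vehicle, of the 9 tested caveolae genes with the 95% confidence interval from edgeR. *Cavin4* lies farthest to the right at 1.42, *Cavin3* farthest to the left at -0.70, and the interval of *Pacsin3*, the gene not called, spans 0.

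*Cav1* (ENSMUSG00000007655, chromosome 6, 17306335-17341452, plus strand, GRCm38) encodes caveolin-1, without which non-muscle cells form no caveolae. Its level was 207.1, 194.5, 233.8 and 231.3 CPM in vehicle cultures 1 to 4 and 299.8, 302.8, 297.0 and 299.9 CPM in TGF-β1 cultures 5 to 8. Every TGF-β1 culture lay above every vehicle culture, and the TGF-β1 cultures lay much closer to each other. The means were 216.7 ± 19.1 CPM (SD, n = 4) and 299.9 ± 2.35 CPM (SD, n = 4). The log2 fold change was 0.47 (SE 0.06; edgeR adjusted p = 0.000433), a 1.38-fold rise with a 95% interval from 1.25 to 1.53.

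*Cav2* (ENSMUSG00000000058, chromosome 6, 17281185-17289115, plus strand, GRCm38) encodes caveolin-2, which needs caveolin-1 to reach the cell surface and joins it in hetero-oligomers. Its gene lies just upstream of *Cav1* on the same strand, with the start sites 25.2 kb apart. Its level was 31.0, 31.8, 35.8 and 35.01 CPM with vehicle and 59.5, 63.8, 61.1 and 64.8 CPM with TGF-β1. The lowest TGF-β1 culture was far above the highest vehicle culture. The means were 33.4 ± 2.38 and 62.3 ± 2.42 CPM (SD, n = 4 each), and the log2 fold change was 0.90 (SE 0.04; edgeR adjusted p = 2.57e-21). *Cav2* thus rose 1.86-fold, with a 95% interval from 1.76 to 1.97 that lay above the interval of *Cav1*.

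*Cav3* (ENSMUSG00000062694, chromosome 6, 112459505-112472872, plus strand) encodes the muscle caveolin. It had 0 counts in all 4 vehicle cultures and in TGF-β1 cultures 6, 7 and 8, and 2 counts in culture 5. It was not tested. At this depth 0 counts allow up to 3 counts, which is between 0.0631 and 0.0658 CPM in a culture.

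The 250 bases before the RefSeq start sites of *Cav1* (chr6:17306085-17306334, plus strand, GRCm38.p6) and *Cav2* (chr6:17280935-17281184, plus strand) are shown because these neighbours rose together by different amounts. Capitals mark the letters of the motifs searched on both strands, which were CAGAC (Smad core), GGGCGG (GC box), GGAATG (TEAD core) and the CArG box.

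Cav1: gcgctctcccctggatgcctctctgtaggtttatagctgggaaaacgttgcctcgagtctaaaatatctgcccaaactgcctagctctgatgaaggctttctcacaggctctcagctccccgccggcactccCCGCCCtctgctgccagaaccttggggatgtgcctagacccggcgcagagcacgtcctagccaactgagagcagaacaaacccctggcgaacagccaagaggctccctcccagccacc

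Cav2: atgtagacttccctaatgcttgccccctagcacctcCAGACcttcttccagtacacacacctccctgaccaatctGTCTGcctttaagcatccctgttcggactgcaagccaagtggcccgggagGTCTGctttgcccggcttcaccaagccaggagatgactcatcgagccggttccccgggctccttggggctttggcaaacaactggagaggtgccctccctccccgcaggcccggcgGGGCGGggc

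The *Cav1* window held 1 GC box and the *Cav2* window 3 Smad cores and 1 GC box. Of the 32851 promoter windows in the RefSeq table, 42.2% held at least 1 Smad core and 32.7% at least 1 GC box. The share of windows with 3 Smad cores was not counted. Both windows were richer in G and C than the median window, at 59.6% and 62.0% beside 52.4%. A match describes the letters only.

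Of the other annotated protein-coding genes with a start site within 500 kb of that of *Cav1*, *Tes* rose and *Met* and *Capza2* fell. *Tes*, which encodes the focal adhesion protein testin and starts 241.2 kb before *Cav1*, went from 79.4 to 102.6 CPM (log2 fold change 0.37, edgeR adjusted p = 1.91e-12). *Met*, the hepatocyte growth factor receptor, starts 157.5 kb after *Cav1* and went from 46.6 to 36.5 CPM (log2 fold change -0.35, edgeR adjusted p = 2.06e-10). *Capza2*, an actin capping subunit 329.9 kb after *Cav1*, changed by -0.12 (edgeR adjusted p = 0.000162). *St7* had a log2 fold change of 0.00 (edgeR adjusted p = 0.952), and *Tfec* was too low to test. The neighbours of *Cav1* and *Cav2* therefore did not share 1 direction.

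*Cavin1* (ENSMUSG00000004044, chromosome 11, 100956733-100970887, minus strand, GRCm38) encodes the cavin on which the whole coat depends. It was the most abundant member, with a mean CPM above that of 99.7% of the genes tested. Its level was 917.4, 922.7, 963.5 and 960.0 CPM with vehicle and 696.6, 689.2, 684.1 and 684.2 CPM with TGF-β1. All 4 TGF-β1 cultures lay well below all vehicle cultures. The means were 940.9 ± 24.2 and 688.5 ± 5.88 CPM (SD, n = 4 each), and *Cavin1* fell by 0.45 on the log2 scale (SE 0.02; edgeR adjusted p = 1.05e-21). The fold was 0.732, with a 95% interval from 0.71 to 0.754.

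*Cavin3* (ENSMUSG00000037060, chromosome 7, 105480083-105482300, minus strand) encodes a cavin that binds protein kinase C delta. Its level was 76.2, 75.4, 78.5 and 79.7 CPM with vehicle and 49.3, 49.7, 46.9 and 44.9 CPM with TGF-β1. The groups were far apart relative to their spread, with SDs of 2.03 and 2.26 CPM. *Cavin3* fell by 0.70 on the log2 scale (SE 0.03; edgeR adjusted p = 1.4e-21), the deepest fall of the members, to 0.616 of the vehicle level. The opposite-strand gene *Gm45667* overlaps 22.5% of its exon bases and had a mean of 28.6 counts, against at least 2108 for *Cavin3*. The strand setting of the counting and its handling of shared reads were not given in the sources used here. Reads in the shared bases may therefore be mixed between the pair or left out of both counts. The level of *Cavin3* per length of exon is less certain for this reason.

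*Cavin2* (ENSMUSG00000045954, chromosome 1, 51289126-51302960, plus strand) encodes a phosphatidylserine-binding cavin that can shape the membrane into tubules. Its level was 112.8, 119.4, 133.0 and 127.4 CPM with vehicle and 160.4, 164.1, 160.0 and 170.4 CPM with TGF-β1. All TGF-β1 cultures lay above all vehicle cultures, opposite to *Cavin1* and *Cavin3*. The means were 123.2 ± 8.86 and 163.7 ± 4.81 CPM (SD, n = 4 each), a log2 fold change of 0.41 (SE 0.04; edgeR adjusted p = 3.77e-07) and a 1.33-fold rise.

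*Cavin4* (ENSMUSG00000028348, chromosome 4, 48663514-48673502, plus strand) encodes the muscle-restricted cavin, and it had the largest fold change of the members on the lowest tested level. Its counts were 97, 61, 67 and 80 with vehicle and 150, 215, 223 and 224 with TGF-β1. In CPM these were 2.10, 1.34, 1.41 and 1.73 with vehicle and 3.27, 4.68, 4.87 and 4.77 with TGF-β1. Culture 5 lay below the other TGF-β1 cultures but above every vehicle culture. The means were 1.65 ± 0.35 and 4.40 ± 0.753 CPM (SD, n = 4 each). *Cavin4* rose 2.67-fold, with a 95% interval from 2.18 to 3.28, and its log2 fold change was 1.42 (SE 0.15; edgeR adjusted p = 5.95e-11).

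*Cavin4* is a gene of striated muscle, and the summed level of 12 striated muscle markers was 21.2 to 23.7 CPM with vehicle and 22.0 to 23.5 CPM with TGF-β1. Of the 6 tested, *Tnnt2*, the cardiac troponin T gene, was called higher, from 0.586 to 1.79 CPM (log2 fold change 1.61), and none was called lower. Over all genes tested, 20.9% were called higher and 20.3% lower. *Ttn* made up most of this sum at 17.5 and 17.0 CPM, whereas *Myod1* averaged 0.00 CPM with vehicle and 0.0106 CPM with TGF-β1, and *Ckm* 0.0703 and 0.0919 CPM. Over the 8 cultures, the genes of at least 1 CPM whose log2 CPM was most like that of *Cavin4* were *Pkp1* (Pearson r = 0.998), *Slc16a11* (0.994) and *Dnase2a* (0.990). These values describe 8 libraries in which both groups are pooled, so any gene that differs between the groups shares part of the pattern.

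The 250 bases before the RefSeq start sites of *Cavin2* (chr1:51288876-51289125, plus strand, GRCm38.p6) and *Cavin4* (chr4:48663264-48663513, plus strand) are shown as those of the cavins that rose, with capitals used as above.

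Cavin2: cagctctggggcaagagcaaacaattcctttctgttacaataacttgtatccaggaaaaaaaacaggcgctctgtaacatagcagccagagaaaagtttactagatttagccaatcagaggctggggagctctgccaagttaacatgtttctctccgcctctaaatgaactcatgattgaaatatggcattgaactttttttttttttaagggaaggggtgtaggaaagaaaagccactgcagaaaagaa

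Cavin4: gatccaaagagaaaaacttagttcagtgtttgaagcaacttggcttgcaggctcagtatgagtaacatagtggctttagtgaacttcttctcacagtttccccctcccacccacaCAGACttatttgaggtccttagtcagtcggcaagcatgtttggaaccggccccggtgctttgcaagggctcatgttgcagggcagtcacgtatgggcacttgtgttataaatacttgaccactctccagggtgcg

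The *Cavin2* window held none of the motif letters, and the *Cavin4* window held 1 Smad core. Neither held a CArG box, which 1.47% of all windows held. The *Cavin2* window was 40.4% G and C and the *Cavin4* window 48.8%, below the median of 52.4%. The windows of *Cav1* and *Cav2*, which also rose, were above it at 59.6% and 62.0%. The window of *Cavin1*, which fell, was 67.6% G and C and held 1 GC box, 1 TEAD core and 0 Smad cores. The window of *Ehd2*, which also fell, was 58.0% G and C and held 1 Smad core and 1 GC box. The *Pacsin2* window held 1 Smad core and 1 GC box, and the *Pacsin3* window 2 GC boxes, 1 TEAD core and 0 Smad cores. The *Cav3* window held none of the motif letters. Smad cores thus stood before members that rose and before a member that fell. All 250 bases of the *Cavin1* and *Pacsin3* windows lay inside the genes as GENCODE annotates them, as did 32 bases of the *Ehd2* window. A TEAD core stood in 12.6% of all windows. Windows were matched for 9 of the 10 members, all but *Cavin3*.

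*Ehd2* (ENSMUSG00000074364, chromosome 7, 15946958-15967567, minus strand) encodes the ATPase that stabilises the caveolar neck. Its level was 384.0, 380.2, 381.4 and 396.0 CPM with vehicle and 346.9, 335.4, 343.3 and 330.9 CPM with TGF-β1. The groups did not overlap, and the shift was small. *Ehd2* fell by 0.18 on the log2 scale (SE 0.02; edgeR adjusted p = 5.49e-09), to 0.88 of the vehicle level.

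*Pacsin2* (ENSMUSG00000016664, chromosome 15, 83375607-83464606, minus strand) encodes the widely expressed pacsin. Its level was 116.4, 114.7, 111.7 and 116.0 CPM with vehicle and 124.0, 126.4, 126.5 and 126.6 CPM with TGF-β1. All TGF-β1 cultures were higher, within a narrow range. The log2 fold change was 0.13 (SE 0.03; edgeR adjusted p = 3.52e-05), a 1.10-fold rise.

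*Pacsin3* (ENSMUSG00000027257, chromosome 2, 91255954-91264679, plus strand) encodes the pacsin known from muscle. Its level was 26.0, 23.8, 24.3 and 25.9 CPM with vehicle and 25.7, 28.0, 25.1 and 26.9 CPM with TGF-β1. The groups overlapped. The log2 fold change of 0.08 (SE 0.05; edgeR adjusted p = 0.186) did not pass the threshold, and the 95% interval of the fold ran from 0.989 to 1.13.

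Levels of the members were then set side by side per kilobase (kb) of annotated exon. The CPM values and sums of CPM given for other comparisons between genes were not corrected for exon length. With vehicle the order of mean CPM per kb was *Cavin1* (262.3), *Ehd2* (75.3), *Cav1* (62.9), *Cavin3* (46.6), *Cavin2* (40.3), *Pacsin2* (23.4), *Cav2* (10.01), *Pacsin3* (5.78) and *Cavin4* (0.802). With TGF-β1 it was *Cavin1* (191.9), *Cav1* (87.1), *Ehd2* (66.2), *Cavin2* (53.6), *Cavin3* (28.7), *Pacsin2* (25.6), *Cav2* (18.7), *Pacsin3* (6.11) and *Cavin4* (2.14). *Cav1* and *Ehd2* had changed places, as had *Cavin2* and *Cavin3*. Within a group, the ranges of neighbours in the order did not overlap. Levels per kb rest on the joined exons of all transcripts of a gene, so they depend on which transcripts these cells use.

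**Figure D3:**
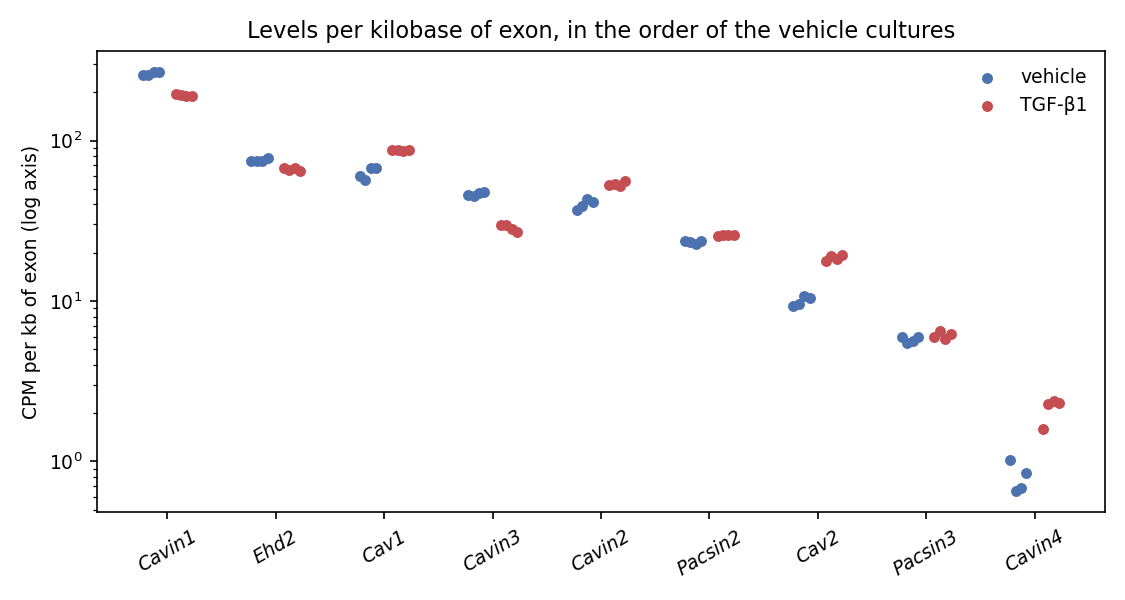
CPM per kb of exon (y axis, log scale) of the 9 tested caveolae genes in each culture, vehicle in blue and TGF-β1 in red. Genes stand in the order of the vehicle cultures. *Cav1* lies below *Ehd2* with vehicle and above it with TGF-β1, and *Cavin2* lies below *Cavin3* with vehicle and above it with TGF-β1.

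Summed per kb, the caveolins went from 72.9 ± 6.19 to 105.8 ± 1.20 and the cavins went from 350.0 ± 10.6 to 276.4 ± 2.06 CPM per kb (SD, n = 4 each). *Ehd2* with the pacsins went from 104.4 ± 1.88 to 98.0 ± 1.03 CPM per kb. The groups did not overlap in any of these sums, which were not tested. Within the cavin sum, *Cavin1* held 74.9 ± 0.341% with vehicle and 69.5 ± 0.381% with TGF-β1. The share of *Cavin2* was 11.5% with vehicle and 19.4% with TGF-β1, and that of *Cavin3* was 13.3% and 10.4%. *Cavin4* held under 1% in both, at 0.23% and 0.775%.

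Ratios within a culture do not depend on how libraries are scaled. The *Cavin1* to *Cav1* ratio per kb was 4.25, 4.56, 3.96 and 3.98 with vehicle and 2.23, 2.19, 2.21 and 2.19 with TGF-β1, and its mean log2 value fell by 0.92. The *Cavin2* to *Cavin1* ratio was 0.144, 0.152, 0.162 and 0.156 with vehicle and 0.27, 0.28, 0.275 and 0.292 with TGF-β1, a log2 difference of 0.86. Neither ratio overlapped between groups. The *Ehd2* to *Cav1* ratio ranged from 1.10 to 1.32 with vehicle and from 0.742 to 0.778 with TGF-β1 (log2 difference -0.66).

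The *Cav2* to *Cav1* ratio was 0.154 to 0.169 with vehicle and 0.205 to 0.223 with TGF-β1, and was higher in every TGF-β1 culture than in any vehicle culture (log2 difference 0.43). The *Cavin3* to *Cavin1* ratio was 0.176 to 0.179 with vehicle and 0.142 to 0.156 with TGF-β1, lower in every TGF-β1 culture (log2 difference -0.25). For these 5 ratios the exact two-sided permutation test gave p = 0.0286, the smallest that 4 against 4 cultures allow, and an adjusted p of 0.0343 over 6 ratios. For *Cavin1* to *Cav1*, *Cavin2* to *Cavin1* and *Ehd2* to *Cav1* this p was fixed in advance. Their 2 genes moved in opposite directions without overlap between groups, so these tests add nothing to the results of the single genes. The adjusted p counts them among the 6. The *Pacsin3* to *Pacsin2* ratio overlapped between groups (log2 difference -0.05, exact permutation p = 0.229, adjusted p = 0.229).

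**Figure D4:**
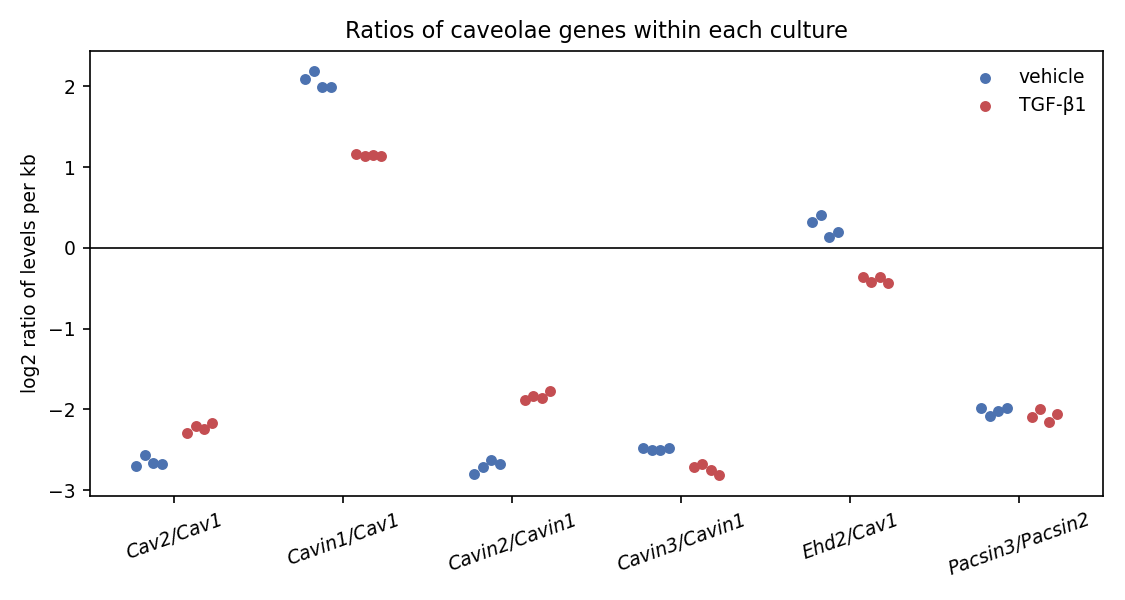
Ratio per kb (y axis, log scale) of 6 pairs of caveolae genes in each culture, vehicle in blue and TGF-β1 in red. All pairs but *Pacsin3* to *Pacsin2* separate the groups, most widely *Cavin1* to *Cav1*.

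Other genes tied to caveolae did not move in 1 direction either. Of 23 caveola-associated genes, 7 were called higher, 9 lower and 7 neither, and their median log2 fold change was -0.03. The 16 called stand beside 41.3% of all genes tested. Of these 23 genes, 22 averaged at least 1 CPM, as did 16494 of the 22544 genes tested. The share was not matched for level, here or for the other lists, and no excess over it was tested. *Ehd3*, an EHD2 relative of the endosomal recycling pathway, had the largest change, from 333.9 ± 4.84 to 114.5 ± 5.91 CPM (log2 fold change -1.54, edgeR adjusted p = 1.04e-35). *Prkca*, protein kinase C alpha, which binds cavin-2, went from 74.6 to 51.4 CPM (-0.54, edgeR adjusted p = 6.16e-19). *Ror1*, a receptor tyrosine kinase that binds caveolar proteins, went from 13.1 to 9.42 CPM (-0.47, edgeR adjusted p = 4.73e-08). All 3 fell, whereas the highest log2 fold change in the list was 0.25.

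Of 26 receptors and channels placed in caveolae, 21 were tested, of which 8 were called higher and 6 lower with a median of 0.10, so 14 were called beside 41.3% of all genes. *Acvrl1*, the type I TGF-β family receptor ALK1, rose from 9.14 ± 0.949 to 22.5 ± 1.39 CPM (log2 fold change 1.30, edgeR adjusted p = 3.83e-21). *Bdkrb2*, the bradykinin receptor, rose from 4.40 ± 0.183 to 10.3 ± 0.793 CPM (1.23, edgeR adjusted p = 1.18e-16). *Tgfbr2*, the type II receptor that binds TGF-β1 itself, fell from 406.0 ± 4.15 to 270.5 ± 15.1 CPM (log2 fold change -0.59, edgeR adjusted p = 8.82e-19). In these 3 receptor genes, picked for large changes among the called genes, the groups of cultures did not overlap. Over all genes tested, the groups did not overlap in 37.9%.

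Clathrin coat genes, which serve the other main route of endocytosis, were called in 12 of 29 cases, 8 higher and 4 lower, with a median of -0.01. That count is near the 41.3% of all genes. *Epn2* and *Dab2*, both clathrin adaptors, rose by 0.54 and 0.34 on the log2 scale (edgeR adjusted p = 3.02e-19 and 1.59e-16), and *Aak1*, the adaptor-associated kinase, changed by -0.18 (edgeR adjusted p = 2.33e-07).

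Of 20 genes of membrane cholesterol handling, 7 were called higher and 6 lower, with a median of -0.01, so 13 were called beside 41.3% of all genes. *Dhcr7*, a reductase of cholesterol synthesis, went from 44.7 to 34.6 CPM (-0.37, edgeR adjusted p = 3.62e-10). *Scarb1*, the high-density lipoprotein receptor found in caveolae, rose from 62.7 to 76.2 CPM (0.28, edgeR adjusted p = 8.3e-10).

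**Figure D5:**
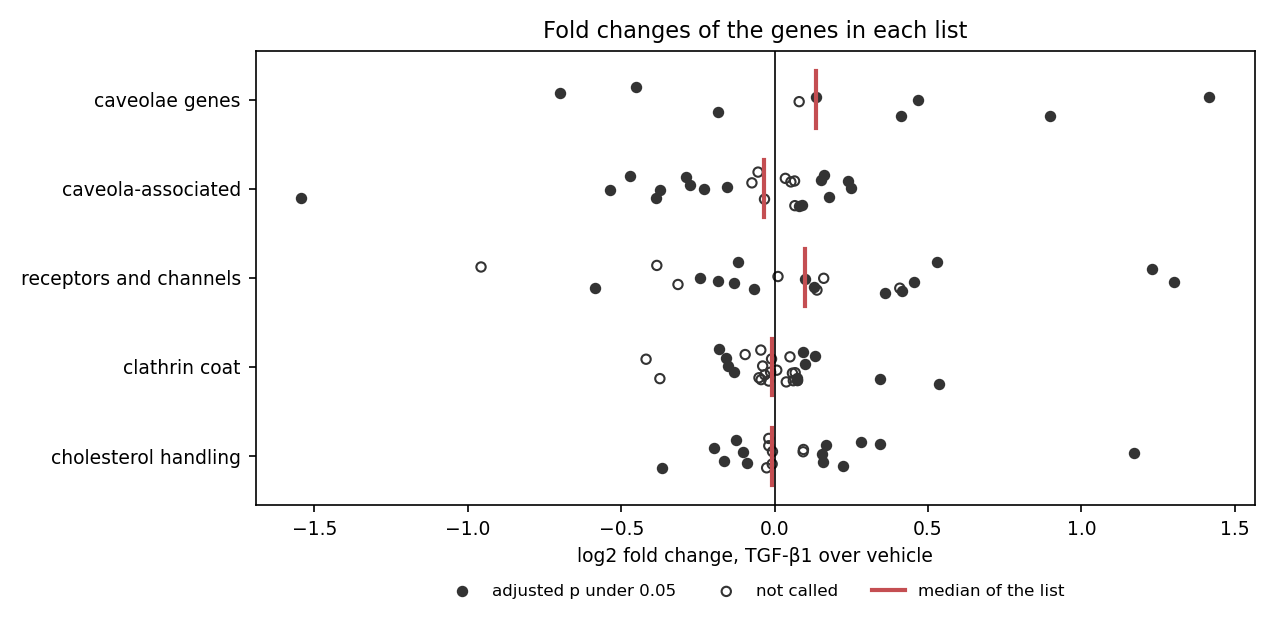
Log2 fold change (x axis), TGF-β1 over vehicle, of every tested gene in the caveolae list and the 4 other lists, with filled points for an adjusted p under 0.05, open points for genes not called and a red line at the median of each list. Called genes lie on both sides of 0 in all 5 lists, and the medians run from -0.03 to 0.13.

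Caveolae are abundant in several other cell types that a pericyte culture could hold, and their marker lists were read beside the members. All counts of called markers stand beside 41.3% of all genes tested, 20.9% called higher and 20.3% called lower. The summed level of 12 endothelial markers was 490.8 to 503.8 CPM with vehicle and 492.3 to 515.5 CPM with TGF-β1, of which *Cdh5* made up 374.9 and 367.1 CPM on average. Of the 8 tested, *Vwf* and *Flt1* were called higher, with log2 fold changes of 1.27 and 0.28, and *Tek* and *Ly6c1* lower, with -0.45 and -0.33. Smooth muscle markers summed to 883.3 to 958.0 CPM with vehicle and 793.6 to 829.2 CPM with TGF-β1, with 1 of 7 tested called higher and 3 lower. *Acta2* made up 731.1 and 715.4 CPM on average and was not called. The 3 called lower were *Smtn* (125.1 to 61.6 CPM), *Synpo2* (43.02 to 9.94 CPM) and *Lmod1* (25.97 to 16.5 CPM). Fibroblast markers summed to 1659.6 to 1740.9 and 2572.0 to 2699.9 CPM, of which *Col1a1* made up 1587.5 and 2524.8 CPM on average, and 1 of 7 tested was called higher and 3 lower. Pericyte markers summed to 418.5 to 438.9 and 578.1 to 600.7 CPM, with 3 of 7 tested called higher and 2 lower.

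Adipocyte markers, of a cell type rich in caveolae, summed to 1.73 to 2.52 CPM with vehicle and 4.71 to 5.41 CPM with TGF-β1. *Fabp4* made up nearly all of this, at 1.89 and 4.78 CPM, and was the 1 gene tested and was called higher, while *Adipoq* averaged 0.134 and 0.076 CPM. Astrocyte markers summed to 19.6 to 21.1 and 24.9 to 27.9 CPM, with 2 of 4 tested called higher and 1 lower. Macrophage and microglia markers summed to 108.7 to 113.6 and 107.9 to 110.2 CPM, with *Tmem119* at 102.4 and 98.5 CPM and *C1qb* at 0 counts throughout, and 1 of 6 tested was called higher. The part of any of these cell types, or of striated muscle cells, in the caveolae results was not tested.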

How the data were processed

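Per the labels and the study's methods, the authors aligned reads to mm10 with STAR 2.7.5c in its 2-pass mode, used SAMtools 1.15 to drop duplicates and featureCounts 2.0.3 to assign reads to genes. They deposited raw counts, 1 library per culture. The annotation release, strand setting and handling of shared reads were not given in the sources used here. Low counts (1 to 20) were even in 68.5% to 70.2% of cases per culture, so some may count both mates of a pair. The study's methods name isolates given both treatments, but the labels do not tie cultures to isolates.

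Symbols and positions came from GENCODE M21 (GRCm38, which mm10 names) for 54495 of 54532 identifiers, and promoter windows from RefSeq (GRCm38.p6). Counts were analysed with edgeR 4.0.16 in R 4.3.3, with filterByExpr, TMM factors, robust dispersions and the quasi-likelihood test of 4 against 4 cultures, adjusted by Benjamini-Hochberg over 22544 genes (threshold 0.05). All fold changes are TGF-β1 over vehicle. The 6 ratios were compared by exact permutation of the group labels, two-sided. Scripts were tested on simulated data. Alternatives were DESeq2 1.42.0, 3 other scalings, 2 other filters, halved counts and leaving out each culture.

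The members and lists were chosen with earlier results of these data known. Genes named beside the members were, in each of the 4 pathway lists, the 3 with the largest absolute log2 fold change among those called with a mean of at least 1 CPM, the protein-coding genes within 500 kb of the *Cav1* start site, and the 3 genes most correlated with the most changed member (pseudocount 0.01 on log2 CPM). A gene that this rule names is not reported here. Of the marker and TGF-β response lists, counts and ranges are given, with genes named after their values were seen where they carry a sum or define a cell type.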

Additional observations from a re-analysis of the deposited data

Results flagged for a closer look

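In 2 caveolae genes, TGF-β1 culture 5 stood apart from the other 3 cultures of its group by Dixon's test at the 95% level. *Cavin4* was 3.27 CPM in culture 5, with the nearest culture at 4.68 and the highest at 4.87 CPM. *Pacsin2* was 124.0 CPM in culture 5, with the nearest culture at 126.4 and the highest at 126.6 CPM. Chance gives about 1 such value in 20 groups, and 2 were found among the 32 groups of 4 cultures examined, beside 1.6 from chance. Without culture 5 both genes were still called higher.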

How the results depend on the processing

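Under all alternatives run, 8 caveolae genes were called (5 higher and 3 lower), and each kept its direction and its side of the threshold. The alternatives were DESeq2, 3 other scalings, 2 other filters, halved counts and leaving out each of the 8 cultures. Leaving out 1 culture at a time gave log2 fold changes of 0.42 to 0.51 for *Cav1* (highest edgeR adjusted p = 0.00273), 0.87 to 0.94 for *Cav2*, 0.38 to 0.46 for *Cavin2*, 1.33 to 1.56 for *Cavin4* and 0.05 to 0.10 for *Pacsin3*, which was called in none (edgeR adjusted p from 0.111 to 0.493). The calls over all genes ranged from 8559 to 9038 without 1 culture and from 8657 to 9311 under the others. DESeq2 and the other scalings moved the median log2 fold change of all genes by -0.011 to 0.006. Counts of 61 to 224 for *Cavin4* limit its precision the most, and *Cav3* was below what this depth can compare. No paired analysis was possible because the labels number the vehicle cultures 1 to 4 and the TGF-β1 cultures 5 to 8, with no number shared.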

Other observations

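Vehicle cultures 1 and 2 both lay below vehicle cultures 3 and 4 in 5 of the 9 tested caveolae genes (*Cav1*, *Cav2*, *Cavin1*, *Cavin2* and *Cavin3*), and above them in 0. Over all 22544 genes tested, cultures 1 and 2 lay below in 4725 (21.0%) and above in 4748. The pattern was noticed in the values and was not tested. It ran the same way in members that rose and in members that fell with TGF-β1.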
